A study of Mus musculus with 6 samples.

Results

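The Serpina cluster protease inhibitors were followed in liver RNA of 2-month-old mice on a C57BL6 background, 4 with the genotype Pcyt2+/- and 2 of wild type. Pcyt2 makes CDP-ethanolamine for phosphatidylethanolamine synthesis, and the titles call the Pcyt2+/- mice knock-out although their genotype field gives 1 altered allele. Each mouse had its own Affymetrix array, read here as the authors' log2 expression values, 1 row per probe set. The labels give neither sex nor feeding state. With 6 arrays, their small number limits precision throughout. The genes were chosen by name: 10 genes of the cluster, each to be read from the probe set annotated to its symbol alone. Of these 10 genes, 6 had such a row (Serpina1b, Serpina1d, Serpina3n, Serpina4-ps1, Serpina6 and Serpina10), out of 18820 genes measured in this way. Serpina1a and Serpina1e were named only on 2 rows that several Serpina1 genes share. Serpina3k and Serpina3m, from the antichymotrypsin-like branch, were not analysed here, because the annotation used names no row for them.

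Serpins inhibit proteases by offering a reactive loop as bait: the protease cuts the loop and is trapped in a covalent complex. Clade A holds most of the serpins that the liver secretes into plasma. The mouse has several near-identical Serpina1 genes for alpha-1-antitrypsin, the plasma inhibitor of neutrophil elastase, where humans have a single functional gene. It also has an expanded Serpina3 branch related to human alpha-1-antichymotrypsin, of which Serpina3n is an acute phase gene. Serpina6 encodes corticosteroid-binding globulin, a serpin without inhibitor activity that carries glucocorticoids in blood. Serpina10 encodes the protein Z-dependent protease inhibitor, which acts on coagulation factor Xa. Serpina4-ps1 is annotated as a transcribed pseudogene, and its synonyms in the gene table refer to kallistatin.

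In the RefSeq gene order of assembly GRCm38.p6 the stretch of chromosome 12 from Serpina10 to Serpina3n held 41 genes, of which 28 carry a Serpina symbol. A row of its own existed for 14 of the 41, the 6 members and 8 other Serpina genes. The labels name no assembly for the probe annotation, so the order serves only to say which genes are neighbours. Genes of the Serpina1 group stand together in the first part of the stretch and the Serpina3 genes in the last, with Serpina4-ps1 between them.

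The start regions of the Serpina1 genes are shown because they make plain how alike the promoters of these copies are. The probes of the array read transcripts, which were not compared here. The windows run from 100 bases before to the end of 60 bases counted from the HNF1 core GTTAAT, on the minus strand of GRCm38.p6, with sequences from RefSeq. The capitals mark GTTAAT, the core of sites for the hepatocyte factor HNF1, and TGTTTGC, a core of sites for the FOXA factors. The windows lie at chr12:103863581-103863740 (Serpina1a), chr12:103738156-103738315 (Serpina1b), chr12:103904918-103905077 (Serpina1c), chr12:103773590-103773749 (Serpina1d) and chr12:103956916-103957075 (Serpina1e), each read 5′ to 3′ along the gene.
Serpina1a: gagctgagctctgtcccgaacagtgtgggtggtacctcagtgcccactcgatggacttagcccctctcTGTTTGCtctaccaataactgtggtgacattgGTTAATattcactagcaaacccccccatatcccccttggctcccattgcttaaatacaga
Serpina1b: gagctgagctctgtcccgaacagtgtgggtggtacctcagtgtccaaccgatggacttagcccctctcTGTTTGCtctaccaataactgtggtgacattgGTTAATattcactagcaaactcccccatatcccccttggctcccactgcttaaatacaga
Serpina1c: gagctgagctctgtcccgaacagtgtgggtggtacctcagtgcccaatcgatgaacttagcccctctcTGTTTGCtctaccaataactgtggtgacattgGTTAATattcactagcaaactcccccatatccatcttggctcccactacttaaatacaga
Serpina1d: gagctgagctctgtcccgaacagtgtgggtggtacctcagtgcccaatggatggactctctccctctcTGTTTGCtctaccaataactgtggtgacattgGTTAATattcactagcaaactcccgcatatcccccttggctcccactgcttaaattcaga
Serpina1e: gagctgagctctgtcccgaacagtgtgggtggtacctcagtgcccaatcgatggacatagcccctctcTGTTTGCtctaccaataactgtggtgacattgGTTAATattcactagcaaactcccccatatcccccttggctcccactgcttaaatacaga
Without gaps, 143 of the 160 positions held the same base in all 5 genes. The closest pair was Serpina1b and Serpina1e, which differed at 3 positions (98.1% identical), and the most distant was Serpina1c and Serpina1d, which differed at 11 (93.1%). GTTAAT began at position -21 in Serpina1a, -26 in Serpina1b, -27 in Serpina1c, -16 in Serpina1d and -78 in Serpina1e, counted with the first base of the annotated gene as 0. On either strand GTTAAT was found in 7.1% of all 32851 promoter windows of 300 bases in the table and TGTTTGC in 5.07%. A match of letters is a description and shows no binding.

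Serpina3n had neither motif in its window. Its 300 bases around the gene start, chr12:104406458-104406757 on the plus strand of GRCm38.p6 (RefSeq), are shown for contrast with the Serpina1 group. The capitals mark the only match to ACANNNTGT, a spaced core of glucocorticoid response elements that 6.85% of all promoter windows hold on either strand.
Serpina3n: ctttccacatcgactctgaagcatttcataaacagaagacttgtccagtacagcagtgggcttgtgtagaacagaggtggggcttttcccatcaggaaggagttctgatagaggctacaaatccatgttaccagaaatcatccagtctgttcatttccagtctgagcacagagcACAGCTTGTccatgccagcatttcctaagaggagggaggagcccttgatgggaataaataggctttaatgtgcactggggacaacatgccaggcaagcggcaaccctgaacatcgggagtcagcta
The Serpina3n window also held no match to TTCNNNGAA, the STAT core (8.3% of all windows), or to TTGCNNAA, a C/EBP core (10.8%), on either strand, which says only that these letters are not in the window. Among the Serpina1 windows of 300 bases, Serpina1a also held ACANNNTGT, upstream of the stretch printed above, and the other 4 did not. Of these windows 0 of 5 held TTCNNNGAA, and TTGCNNAA was found in the windows of Serpina1a, Serpina1b, Serpina1d and Serpina1e.

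Across the array, limma (moderated linear model across all genes) called 0 of 18820 genes at a Benjamini-Hochberg adjusted p under 0.05, and 998 genes had an unadjusted p under 0.05. Pcyt2 itself averaged 4.64 ± 0.028 in Pcyt2+/- livers (SD, n = 4) and 4.84 ± 0.064 in wild type livers (SD, n = 2), with no overlap (limma adjusted p = 0.264). The low end of the scale is compressed: 4.21% of genes had a mean above 5, and array medians lay at 4.40. Arrays correlated at r of 0.991 to 0.998 across rows, which are not independent. Hepatocyte markers stood high. Of 6 listed symbols 5 were found, with a summed signal (log2 of the sum) of 13.58 to 13.68 in Pcyt2+/- and 13.60 to 13.72 in wild type livers. The other, transferrin, was listed as Tf and so missed, while its row under the symbol Trf averaged 11.06. The marker lists of macrophages, neutrophils, lymphocytes, endothelial cells, cholangiocytes, adipocytes and pancreatic acinar cells had 0 members with a mean above 5, and the stellate list had 1, Dcn, a matrix proteoglycan.

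The differences of the members had both signs, and those of Serpina1b, Serpina1d and Serpina6 were small beside their SE. Of the 6 members with an own row, 3 had a higher and 3 a lower mean in Pcyt2+/- livers, and the median difference was -0.0004 on the log2 scale, against -0.0007 over all 18820 genes. Limma called 0 of the 6 at an adjusted p under 0.05 (adjusted p from 0.913 to 0.997), where the share of all genes called was 0%. The groups did not overlap for 1 of the 6, Serpina4-ps1, where the share of all genes without overlap was 12.8% in either direction and 5.67% for higher values in Pcyt2+/-. At an unadjusted limma p under 0.05 stood 1 of the 6, again Serpina4-ps1, where the share of all genes was 5.3%, made up of 3.44% lower and 1.86% higher in Pcyt2+/- livers. These shares are the background for the counts of lower and higher genes in each list below. The genes were proposed with results of this contrast known, so the differences below describe these mice and nothing is read from these counts.

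**Figure D1:**
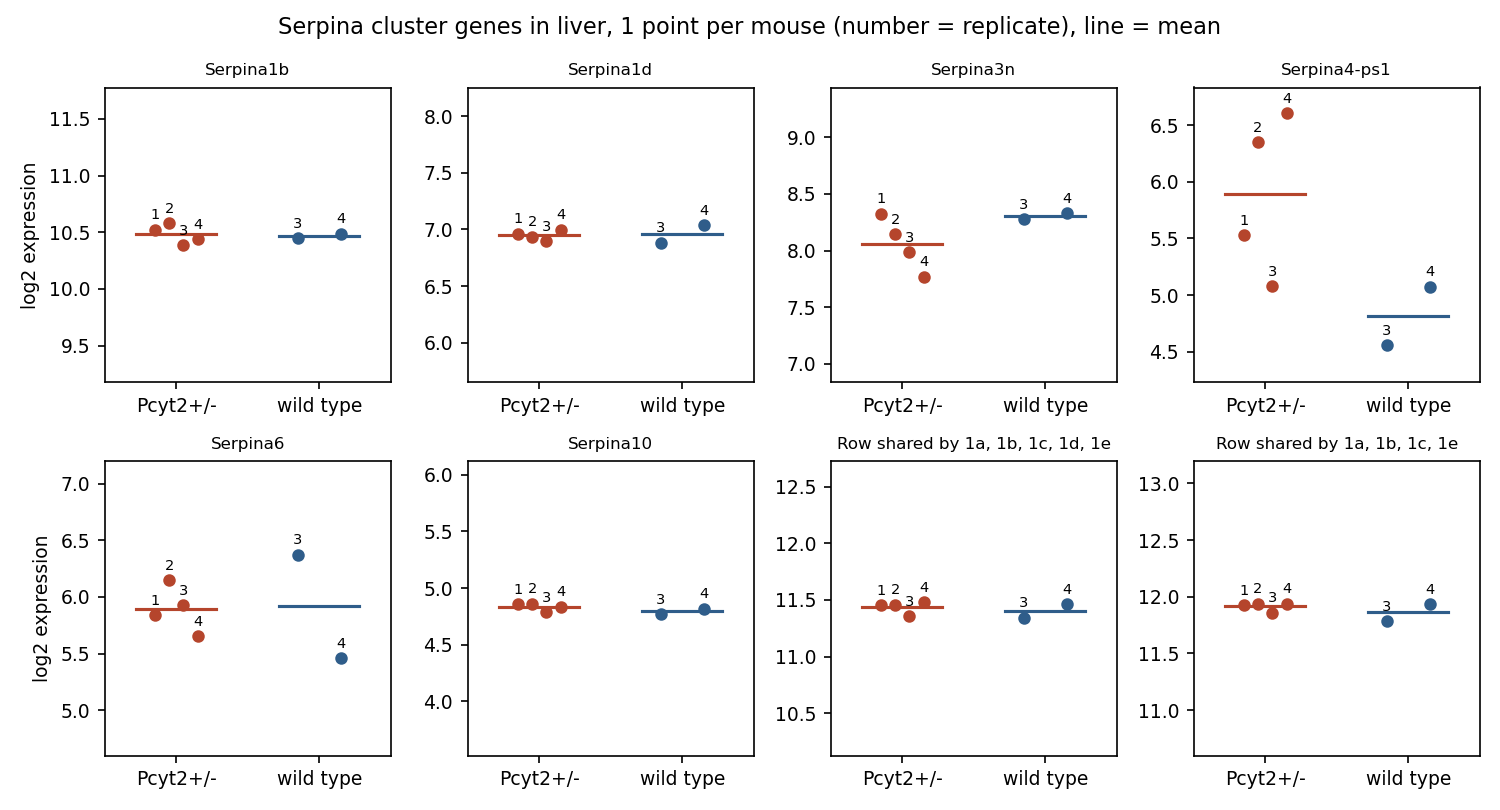
Log2 expression of each of the 6 members with a row of its own and of the 2 rows shared by Serpina1 genes, 1 point per mouse with its replicate number, Pcyt2+/- at the left and wild type at the right, and a line at the group mean; every panel spans the same height in log2 units. The points for Serpina4-ps1 spread over 2.05 log2 units and those for Serpina10 over 0.0957.

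The alpha-1-antitrypsin genes had nearly the same signal in both genotypes. Serpina1b had 10.52, 10.58, 10.38 and 10.44 in Pcyt2+/- livers, against 10.45 and 10.49 in wild type livers. The wild type values lay inside the Pcyt2+/- range. Serpina1b averaged 10.48 ± 0.087 in Pcyt2+/- (SD, n = 4) and 10.47 ± 0.028 in wild type livers (SD, n = 2), which differ by 0.012 (SE 0.052, 95% interval -0.11 to 0.13).

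Serpina1d, another alpha-1-antitrypsin copy (the mouse copies are known to differ chiefly in the reactive loop), had 6.961, 6.935, 6.898 and 6.998 in Pcyt2+/- livers, against 6.882 and 7.039 in wild type livers. Here the Pcyt2+/- values all lay between those of both wild type mice. The difference was -0.012 (SE 0.045, 95% interval -0.12 to 0.094). Because the copies are near-identical, the split of signal between the rows of Serpina1b and Serpina1d and those of the other copies is uncertain.

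Serpina1a and Serpina1e could be seen only on rows that several copies share. The row shared by all 5 Serpina1 genes had 11.45, 11.46, 11.36 and 11.48 in Pcyt2+/- livers, against 11.34 and 11.46 in wild type livers. The row shared by Serpina1a, Serpina1b, Serpina1c and Serpina1e had 11.93, 11.94, 11.86 and 11.94 in Pcyt2+/- livers, against 11.79 and 11.94 in wild type livers. On both rows Pcyt2+/- replicate 3 was the lowest of its group and wild type replicate 3 the lowest of all. The difference was 0.035 (SE 0.045) for the row of 5 genes and 0.055 (SE 0.044) for the row of 4, with limma adjusted p of 0.982 and 0.959 in a fit of every row. Serpina1c, a further copy that is no member, had its own row and averaged 11.71 ± 0.13 in Pcyt2+/- (SD, n = 4) and 11.73 ± 0.14 in wild type livers (SD, n = 2), with a limma adjusted p of 0.996.

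Serpina3n, the acute phase member of the antichymotrypsin-like branch, had the most negative difference among the 6. It stood at 8.32, 8.15, 7.99 and 7.77 in Pcyt2+/- livers, against 8.28 and 8.33 in wild type livers. Pcyt2+/- replicate 1 lay between both wild type values, and the other 3 Pcyt2+/- mice lay below them, so the groups overlapped. The group means were 8.06 ± 0.24 in Pcyt2+/- (SD, n = 4) and 8.31 ± 0.037 in wild type livers (SD, n = 2), so that Pcyt2+/- minus wild type was -0.25 (SE 0.14, 95% interval -0.57 to 0.076), and the wild type signal was 1.19-fold higher. Without Pcyt2+/- replicate 4 the difference was -0.15, and without Pcyt2+/- replicate 1 it was -0.34. It was -0.161 after quantile normalization.

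Serpina4-ps1 had the largest difference of the 6, and also the largest spread. Its values were 5.527, 6.350, 5.080 and 6.604 in Pcyt2+/- livers, against 4.557 and 5.075 in wild type livers. All 4 Pcyt2+/- values lay above both wild type values, but Pcyt2+/- replicate 3 and wild type replicate 4 were 0.0049 apart. Mice of the Pcyt2+/- group thus differed among themselves by up to 1.52, more than the difference between the group means. Those means were 5.89 ± 0.71 in Pcyt2+/- (SD, n = 4) and 4.82 ± 0.37 in wild type livers (SD, n = 2), so that the difference was 1.07 (SE 0.43, 95% interval 0.064 to 2.08), or a 2.11-fold higher signal in Pcyt2+/- livers.

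Because Serpina4-ps1 lies near the low end of the scale, its signal was also read on the linear scale after each array's median signal was taken off. It was 25.0, 60.4, 12.7 and 76.2 units above the median in Pcyt2+/- livers, against 2.4 and 12.6 in wild type livers. On that scale the mouse with the lowest signal, wild type replicate 3, was hardly above the array's median signal of 21.2. The log2 difference was 2.67 there (limma adjusted p = 0.608), with wild type replicate 3 close to the floor of 2 set for that scale. With that mouse left out on the deposited scale the difference was 0.815, and without Pcyt2+/- replicate 3 it was 1.34.

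Serpina6, the glucocorticoid carrier, varied between mice by far more than its group means differed. It had 5.84, 6.15, 5.93 and 5.65 in Pcyt2+/- livers, against 6.37 and 5.46 in wild type livers. Both wild type mice stood at the extremes, 1 above and 1 below all Pcyt2+/- mice. The means were 5.89 ± 0.20 in Pcyt2+/- (SD, n = 4) and 5.92 ± 0.65 in wild type livers (SD, n = 2), and the difference was -0.025 (SE 0.24, 95% interval -0.61 to 0.56). Leaving out a wild type mouse turned the picture either way: the difference was 0.431 without wild type replicate 3 and -0.482 without wild type replicate 4.

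Serpina10, the protein Z-dependent inhibitor, lay in the compressed low band. It had 4.86, 4.86, 4.79 and 4.84 in Pcyt2+/- livers, against 4.77 and 4.82 in wild type livers, so that the groups overlapped. The difference was 0.042 (SE 0.025, 95% interval -0.018 to 0.10), and 0.0156 without wild type replicate 3. In linear units above the array median it had 7.9, 8.0, 6.5 and 7.4 in Pcyt2+/- livers, against 6.1 and 7.2 in wild type livers.

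**Figure D2:**
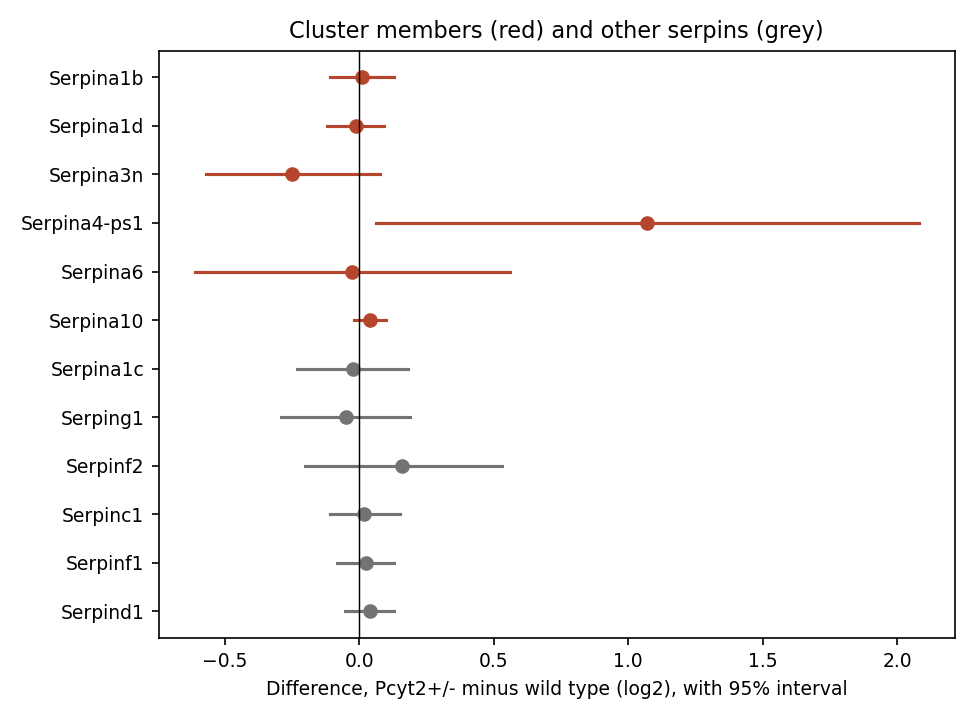
Difference between group means, Pcyt2+/- minus wild type in log2 units, with its 95% interval from limma, for the 6 members (red) and for the other serpins with a mean above 5 (grey). The interval of Serpina4-ps1 runs from 0.064 to 2.08 and that of Serpina1b from -0.11 to 0.13.

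The members also differed in how much mice of the same genotype varied, a measure that takes no account of the difference between genotypes. The pooled SD within groups was 0.641 for Serpina4-ps1, 0.368 for Serpina6, 0.206 for Serpina3n, 0.0767 for Serpina1b, 0.0665 for Serpina1d and 0.0352 for Serpina10, each on 4 residual degrees of freedom. For Serpina6 the SD was 0.20 among Pcyt2+/- mice and 0.65 between both wild type mice, so that the wild type pair carries the pooled value. For Serpina3n the SD was 0.24 among Pcyt2+/- mice and 0.037 between both wild type mice. Set beside the 100 genes nearest in mean signal, all 100 had a smaller SD than Serpina4-ps1 and 98 a smaller SD than Serpina6, while 24 had a smaller SD than Serpina1b and 14 than Serpina1d. Between these stood Serpina3n, with 68 of its 100 nearest genes at a smaller SD, and Serpina10, with 59. Serpina4-ps1 was placed among genes of its mean over all arrays, 5.53, although its group means lay far apart, at 5.89 in Pcyt2+/- and 4.82 in wild type livers. Among other alpha-1-antitrypsin rows, that of Serpina1c had a larger SD, 0.13. The 2 shared rows, which also name Serpina1c, had an SD of 0.0639 (5 genes) and 0.0625 (4 genes). These 3 rows were not set beside genes of like signal. Because the split of signal between copies is uncertain, no spread is assigned to a single copy.

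**Figure D3:**
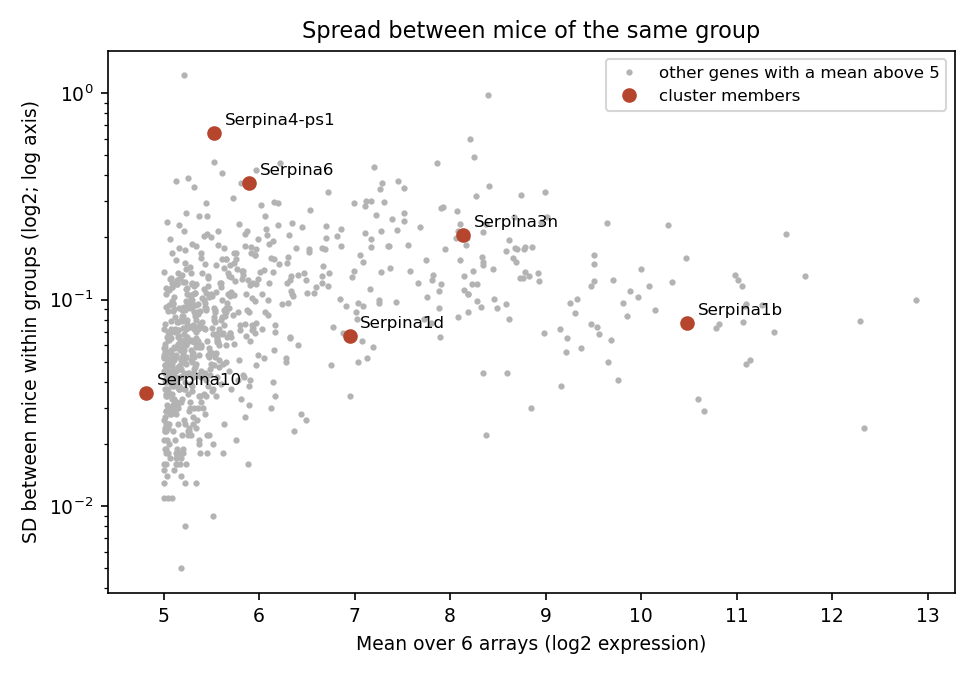
SD between mice of the same genotype, pooled over both groups (log2 units, logarithmic axis), against the mean log2 signal over the 6 arrays, for the genes with a mean above 5 (grey) and the 6 members (red). Serpina4-ps1 at 0.641 and Serpina6 at 0.368 stand near the top, and Serpina1b and Serpina1d lie under most genes of like signal.

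The members did not share a pattern over the 6 arrays. Across the 15 pairs of members Pearson's r ran from -0.90 (Serpina1d and Serpina6) to 0.78 (Serpina4-ps1 and Serpina10), a description over 6 arrays that share their processing. Among the 791 other genes with a mean above 5, those most like Serpina4-ps1 were Clu, the extracellular chaperone clusterin (r = 0.961), Amacr, a racemase of branched-chain fatty acid and bile acid metabolism (r = 0.923), and Rac1, a small GTPase (r = 0.910). An r of at least 0.9 was reached by 4 of them. Clu, Amacr and Rac1 were picked for the highest r among 791 genes over only 6 arrays, where unrelated genes can also reach high values. How many would do so by chance was not tested, and r also takes in the difference between genotypes. The ranges of Clu, Amacr and Rac1 were small beside that of Serpina4-ps1: Clu had 7.18, 7.24, 7.16 and 7.31 in Pcyt2+/- livers, against 7.13 and 7.15 in wild type livers. The difference was 0.085 for Clu, 0.094 for Amacr and 0.024 for Rac1, and none of these passed limma (adjusted p from 0.932 to 0.936).

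Other genes of the cluster gave little signal or little difference. Of 16 other Serpina genes listed, 9 were measured, and 0 passed limma in either direction, with 0 at an unadjusted p under 0.05. Apart from Serpina1c their means lay below 5: Serpina11, Serpina5, an inhibitor of activated protein C, Serpina9, Serpina12, an adipokine also called vaspin, Serpina1f, Serpina3a and Serpina3b, all of the stretch on chromosome 12, and Serpina7, the thyroxine-binding globulin on chromosome X. Differences over the 9 ran from -0.034 to 0.016, with a smallest adjusted p of 0.945. Next to Serpina4-ps1 in the gene order stand Serpina12 on one side, with 1 gene between them that had no row of its own, and Serpina5 on the other. Serpina12 differed by -0.015 (SE 0.014) and Serpina5 by -0.021 (SE 0.014), both at the low end, where a change of RNA moves the log2 value little.

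**Figure D4:**
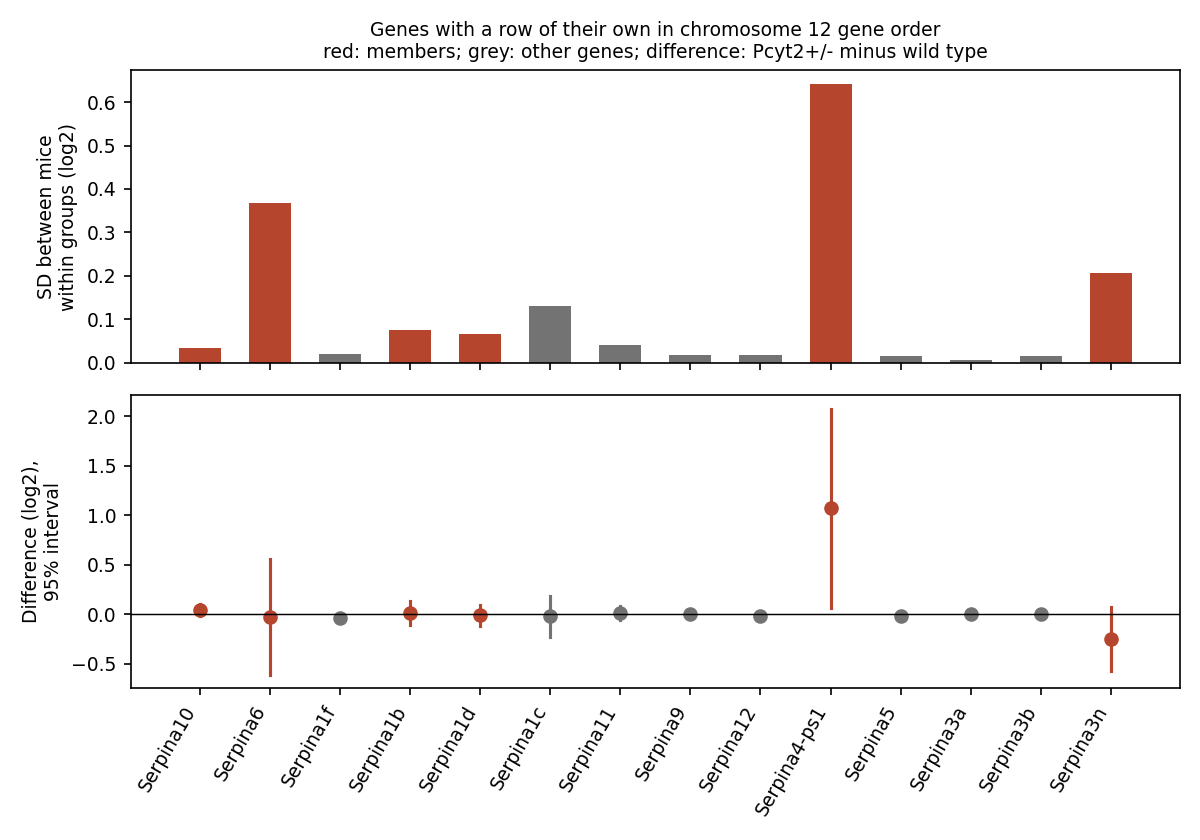
Genes of the chromosome 12 stretch that have a row of their own, in gene order from Serpina10 to Serpina3n, members in red and other genes in grey. The upper panel gives the SD between mice within groups (log2) and the lower panel the difference Pcyt2+/- minus wild type (log2) with its 95% interval. Serpina4-ps1, at an SD of 0.641, stands out from both neighbours in both panels. Those neighbours, Serpina12 and Serpina5, had means of 4.29 and 4.43, near the array medians of 4.40, where SD and difference are both compressed.

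Serpins of other clades were tested alongside, since the liver secretes several of them. Of 13 listed, 11 were measured, 0 passed limma in either direction and 0 had an unadjusted p under 0.05. Serpinf2, the alpha-2-antiplasmin that inhibits plasmin, had 8.44, 8.25, 7.84 and 8.11 in Pcyt2+/- livers, against 8.10 and 7.89 in wild type livers, and the groups overlapped with a difference of 0.16 (SE 0.16, limma adjusted p = 0.968). Serping1, the inhibitor of complement C1 esterase, differed by -0.05, Serpinc1, antithrombin, by 0.018, Serpind1, heparin cofactor II, by 0.04 and Serpinf1, the pigment epithelium-derived factor, by 0.024 (limma adjusted p from 0.968 to 0.996 over these 5).

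The proteases and cofactors that meet these inhibitors gave 0 genes past limma among 15 measured of 18 listed, while an unadjusted p under 0.05 was reached by 0 lower and 1 higher genes. The proteases of neutrophils, mast cells and lymphocytes on that list (Elane, Ctsg, Prtn3, Cma1 and Gzmb) all had means below 5 and are made outside hepatocytes. Plg, plasminogen, differed by -0.019, F2, prothrombin, by -0.13 and F12, the contact factor, by 0.0044 (limma adjusted p from 0.945 to 0.997). After quantile normalization the value for F2 was -0.00128.

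Genes listed as transcriptional regulators, receptors and signalling genes among them, gave 0 past limma among 17 measured of 19 listed. An unadjusted limma p under 0.05 was reached by 1 lower and 2 higher genes. Action of the listed genes on the members was not tested. Hnf4a, a nuclear receptor of hepatocyte identity, differed by -0.25, but wild type replicate 4 at 7.90 stood alone and the difference was 0.0381 without it. Ghr, the growth hormone receptor, averaged 5.62 ± 0.054 in Pcyt2+/- (SD, n = 4) and 5.50 ± 0.009 in wild type livers (SD, n = 2), and Cebpa, a C/EBP factor of hepatocytes, differed by -0.082 (limma adjusted p = 0.662 for Ghr and 0.897 for Cebpa).

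Acute phase genes, the company of Serpina3n in inflammation, gave 0 past limma among 17 measured of 18 listed, while an unadjusted p under 0.05 was reached by 0 lower and 2 higher genes. Of the 17, 13 had a higher and 4 a lower mean in Pcyt2+/- livers, and their median difference was 0.022, where 9056 of all genes had a higher and 9764 a lower mean. The 2 higher genes at an unadjusted limma p under 0.05 were Itih4, by 0.25, and Fga, by 0.072 (limma adjusted p = 0.662 and 0.913). Among the 4 with a lower mean were Hp, haptoglobin, by -0.16, and Crp, C-reactive protein, by -0.12 (limma adjusted p = 0.955 for Hp and 0.964 for Crp). Itih4, Fga, Hp and Crp were named after their values were seen. The brightest of the 17 were the fibrinogen chains Fgg, which differed by 0.15, and Fgb, by 0.03, and the heme carrier Hpx, by 0.11 (limma adjusted p from 0.936 to 0.989). When wild type replicate 3 was left out, Fgg differed by 0.0293 and Hpx by 0.0396.

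Genes of secretion and quality control in the endoplasmic reticulum, through which serpins pass, gave 0 past limma among 14 measured of 15 listed, while an unadjusted p under 0.05 was reached by 1 lower and 0 higher genes. Calr, calreticulin, differed by 0.0037, Canx, calnexin, by -0.12 and Hspa5, the chaperone BiP, by 0.082 (limma adjusted p from 0.936 to 0.997), and the last was -0.197 without wild type replicate 3.

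Genes that handle or answer to corticosteroids, the hormones that Serpina6 carries, gave 0 past limma among 10 measured of 11 listed, while an unadjusted p under 0.05 was reached by 1 lower and 0 higher genes. The lower one was Tat, tyrosine aminotransferase, a classical glucocorticoid target, with 7.34, 7.25, 7.61 and 7.04 in Pcyt2+/- livers, against 8.58 and 8.30 in wild type livers (limma adjusted p = 0.219). Wild type replicates 3 and 4, which differed by 0.913 in Serpina6, differed by 0.28 in Tat. Hsd11b1, which regenerates active glucocorticoid, differed by -0.025, and H6pd, which supplies its cofactor, by 0.11 (limma adjusted p = 0.978 for Hsd11b1 and 0.956 for H6pd), and by -0.0386 for H6pd without wild type replicate 3. In whole liver, fewer cells of a type and less RNA per cell cannot be told apart.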

How the data were processed

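Total RNA of snap-frozen liver from 6 mice was extracted and labelled for Affymetrix arrays, per the labels' protocols. The authors deposited log2 values for each probe set, and the submitters' processing notes name RMA (background correction, quantile normalization and summary of probes). Neither its version nor a genome build is given in the sources used here. Titles and genotype fields gave 4 Pcyt2+/- and 2 wild type mice. Of 28996 rows, 21218 had 1 gene symbol in the platform annotation, 1881 several and 5897 none, and 21185 matched RefSeq gene identifiers. For genes with several rows (1386 of 18820) the brightest over all arrays was taken.

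Differences (Pcyt2+/- minus wild type) were fitted with limma 3.58.1 in R 4.3.3 (lmFit, eBayes, two-sided, without covariates) on the 6 arrays, and p-values were adjusted by Benjamini-Hochberg across the 18820 genes, with calls under 0.05. The fit was tested on simulated data. Other steps used Python 3.11.15, pandas 2.3.3, numpy 2.4.6 and matplotlib 3.10.9.

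The members and lists were chosen with earlier results of these data known. Named were the 6 members measured, Pcyt2, every listed serpin with a mean above 5, the 3 brightest genes of each other list, the genes between the outermost members, and the 3 genes most correlated with the member of largest difference. The alternatives were a dim gene filter, every row, averaging the rows of a gene, median centring, quantile normalization, a trended robust prior, array weights, a replicate block, median signal subtraction and leaving out each array. The processing notes already name quantile normalization, so the alternative was a further pass, over the rows taken for the genes.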

Additional observations from a re-analysis of the deposited data

Results flagged for a closer look

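The row shared by Serpina1a, Serpina1b, Serpina1c and Serpina1e had a sample set apart from its group: Pcyt2+/- replicate 3 stood at 11.86, while the other 3 Pcyt2+/- mice lay between 11.93 and 11.94. The gap is small in absolute terms because those 3 values nearly coincide. Amacr, 1 of the genes most like Serpina4-ps1, had the same mouse apart, at 5.43 in Pcyt2+/- replicate 3 against 5.54 to 5.56 in the other 3. Amacr was picked for its likeness to Serpina4-ps1, which also had its lowest Pcyt2+/- value in that mouse. Its flag is therefore no separate observation. Both come from 40 rows examined by Dixon's test at 95%, which flags about 1 in 20 by chance.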

How the results depend on the processing

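The count of genes called, 0 as reported, was 9 with a trended and robust prior, 2 with the median signal subtracted on the linear scale, 2 with a replicate block on the numbers 3 and 4 that both groups share, and 0 to 9 with 1 array left out; it was 0 with the other settings. None of the 14 cluster genes with a row of its own was called under any of them. The labels do not say that same-numbered mice belong together. Over all genes, same-numbered arrays correlated in their deviations from the group means at 0.147 for replicate 3 and 0.072 for replicate 4 (0.113 and 0.153 over genes with a mean above 5). Arrays of unlike number ran from -0.19 (Pcyt2+/- replicate 1 with wild type replicate 3) to 0.19 (Pcyt2+/- replicate 1 with wild type replicate 4). Each value changes sign with the other wild type mouse, since that group has only 2. With only 2 shared numbers and no label that ties them, the numbers were not taken as pairs. The replicate block fit held only the mice numbered 3 and 4, so Pcyt2+/- replicates 1 and 2 were left out of it. The median difference of the members lay between -0.035 (replicate block) and 0.049 (without wild type replicate 4), and was 0.023 with the shared rows counted in, a setting chosen after seeing the data. Of 564 values of 38 named genes under other settings, 517 neither changed sign nor crossed the threshold, and 46 changed sign (21 genes). The remaining 1 passed, Tat with a trended and robust prior (limma adjusted p = 0.0418). The 517 include differences of 0, which have no direction. These were Serpina1f, Serpina9, Serpina12, Serpina5, Serpina3a and Serpina3b at the floor with the median signal subtracted, and Fgb without wild type replicate 4. The sign of Serpina4-ps1, Serpina3n and Serpina10 was the same under all settings run.

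With quantile normalization the difference was -0.02 for Serpina1b, 0.0294 for Serpina1d, 0.0298 for Serpina6, 0.068 for Serping1 and 0.0773 for Plg. With the replicate block it was -0.0586 for Serpina1b, -0.0229 for Serpinf2, -0.0342 for Serpinc1, -0.0254 for Serpinf1, -0.00488 for Serpind1, -0.0503 for F12 and -0.0137 for Serpina11. It was 0.0131 for Serpina6 with the median signal subtracted and -0.000524 for Calr with array weights. With 1 array left out, differences ran from -0.0208 to 0.0443 for Serpina1b, -0.0911 to 0.0662 for Serpina1d, -0.482 to 0.431 for Serpina6, -0.118 to 0.0732 for Serpina1c, -0.125 to 0.0283 for Serping1, -0.0083 to 0.063 for Serpinc1, -0.0493 to 0.016 for Plg, -0.0145 to 0.0425 for F12, -0.533 to 0.0381 for Hnf4a, -0.000326 to 0.0605 for Fgb, -0.0623 to 0.0696 for Calr, -0.197 to 0.361 for Hspa5, -0.0386 to 0.256 for H6pd, -0.063 to 0.0132 for Hsd11b1, -0.0293 to 0.0527 for Serpina11, -0.00806 to 0.0125 for Serpina9, -0.00415 to 0.00952 for Serpina3a and -0.00146 to 0.0138 for Serpina3b. With the replicate block the difference is that between the mice numbered 3 and 4 alone, so its changes come from the mice left out. The cause of the other changes was not tested, and most of the values are small beside the spread between mice. Fits without 1 wild type array assume that the remaining one varies like the Pcyt2+/- arrays.

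Other values kept their sign but moved by over 1.5 times. With the replicate block the difference was -0.429 for Serpina3n, 0.0171 for Serpina10, -0.148 for Serping1 and -0.208 for F2. With quantile normalization it was 0.197 for Serpinc1, 0.273 for Serpinf2, -0.126 for Hnf4a and -0.054 for Canx. With the median signal subtracted it was 0.165 for Serpina10, -0.974 for Pcyt2, 0.231 for Ghr, -0.247 for Cebpa, 0.278 for H6pd and -0.209 for Canx. With 1 array left out it ran from 0.0586 to 0.273 for Serpinf2, and without wild type replicate 4 it was 0.279 for Fgg, 0.186 for Hpx and -0.0349 for Canx.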
